A study of Mus musculus with 2 samples.

Results

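Membrane transporters of the solute carrier superfamily were described gene by gene across the cells of mouse cerebral cortex dissociated with its meninges. The 10 genes, named as barrier carriers, were Slc6a13, Slc6a20a, Slc7a11, Slc22a6, Slc22a2, Slc47a1, Slc5a5, Slc16a1, Slc2a1 and Slco1a4. All 10 are columns of both deposited count tables, which together hold 25595 genes. Their levels are given per library, cell class and fibroblast sub-cluster. A cell was used if it had 300 genes or more and no more than 25% of its UMIs (unique molecular identifiers, which count captured RNA molecules) from mitochondrial genes.

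The study made 1 single-cell library from N-PRα-KO mice, which carry Nestin-Cre and floxed Pdgfra alleles, and 1 from wild-type C57BL/6J mice (WT). Both libraries come from cells held by a magnetic sort for CD140a, the protein encoded by Pdgfra, and both were made with the BD Rhapsody whole-transcriptome kit. The series asks how fibroblasts of the N-PRα-KO cortex, described by the submitters as hypomyelinated and with activated fibroblasts, are composed. The labels do not say which cells the deletion reached. Nestin-Cre is known to be active chiefly in neural progenitors and their descendants. The labels give neither age, sex nor the number of animals, and with 1 library per genotype no test between genotypes is possible: animal, preparation and pipeline run cannot be told apart from genotype. Intervals below are exact 95% intervals for counting error only, and PCR or animal variation is not in them.

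Solute carriers decide which small molecules cross the cell layers that separate blood, cerebrospinal fluid and brain. In brain capillaries, Slc2a1 (the glucose transporter GLUT1), Slc16a1 (the lactate and ketone body transporter MCT1) and Slco1a4 (an organic anion transporter of the OATP family) are known endothelial carriers of the blood-brain barrier. The meninges form a second barrier, in which arachnoid and other leptomeningeal fibroblasts carry transporters for amino acids (Slc6a13, the GABA and taurine transporter GAT2; Slc6a20a, an imino acid transporter; Slc7a11, the cystine-glutamate exchanger xCT) and for organic ions (Slc22a6, OAT1; Slc22a2, OCT2; Slc47a1, the efflux antiporter MATE1). Slc5a5 is the sodium-iodide symporter, best known from the thyroid.

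The regions just upstream of 6 of these genes are printed because they carry the main contrasts below: 3 genes led by fibroblasts and 3 led by endothelium. Each is the 250 bases before a RefSeq transcription start on GRCm38.p6, read 5′ to 3′ on the gene's own strand. Slc6a13 (plus strand, the first of its 3 RefSeq starts) lies at chr6:121300038-121300287, Slc6a20a (minus) at chr9:123678833-123679082 and Slc7a11 (minus) at chr3:50443614-50443863. Slc2a1 (plus) lies at chr4:119108495-119108744, Slc16a1 (plus) at chr3:104638414-104638663 and Slco1a4 (minus) at chr6:141856221-141856470. Capitals mark matches, on either strand, to the motifs searched: TGACNNNGC (antioxidant response element core), TGATGNAA (amino acid response element core), GTAAACA (forkhead core), GCCNNNGGC (AP-2 core) and TATAAA.
Slc6a13: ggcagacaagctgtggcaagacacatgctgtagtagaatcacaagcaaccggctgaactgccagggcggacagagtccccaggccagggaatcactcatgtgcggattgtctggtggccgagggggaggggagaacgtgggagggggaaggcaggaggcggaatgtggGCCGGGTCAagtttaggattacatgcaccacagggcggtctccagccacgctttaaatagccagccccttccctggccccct
Slc6a20a: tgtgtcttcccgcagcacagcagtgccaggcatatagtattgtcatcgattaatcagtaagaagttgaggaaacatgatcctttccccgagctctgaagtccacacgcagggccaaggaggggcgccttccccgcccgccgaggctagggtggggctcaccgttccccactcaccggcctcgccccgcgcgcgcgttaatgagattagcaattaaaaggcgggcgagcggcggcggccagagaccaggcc
Slc7a11: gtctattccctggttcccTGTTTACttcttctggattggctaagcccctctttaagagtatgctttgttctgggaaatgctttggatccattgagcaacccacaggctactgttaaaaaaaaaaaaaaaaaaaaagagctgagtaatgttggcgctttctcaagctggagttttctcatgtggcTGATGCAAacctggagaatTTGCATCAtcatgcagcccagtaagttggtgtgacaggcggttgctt
Slc2a1: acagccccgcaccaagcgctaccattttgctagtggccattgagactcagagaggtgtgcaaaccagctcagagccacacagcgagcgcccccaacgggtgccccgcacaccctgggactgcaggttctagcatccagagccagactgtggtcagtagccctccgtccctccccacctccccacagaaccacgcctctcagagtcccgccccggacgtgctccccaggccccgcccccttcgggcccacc
Slc16a1: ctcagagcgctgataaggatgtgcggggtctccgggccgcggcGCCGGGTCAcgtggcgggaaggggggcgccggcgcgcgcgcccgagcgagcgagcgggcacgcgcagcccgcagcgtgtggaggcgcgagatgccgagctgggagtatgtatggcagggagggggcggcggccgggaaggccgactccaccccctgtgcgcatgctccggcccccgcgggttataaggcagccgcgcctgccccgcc
Slco1a4: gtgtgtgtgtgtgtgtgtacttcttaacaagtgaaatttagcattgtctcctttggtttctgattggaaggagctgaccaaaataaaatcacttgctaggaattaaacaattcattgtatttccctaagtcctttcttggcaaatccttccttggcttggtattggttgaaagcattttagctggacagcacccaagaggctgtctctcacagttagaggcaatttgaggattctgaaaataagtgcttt

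The promoter table held 9 of the 10 genes, all but Slc47a1. On GRCm38 (GENCODE M21) the genes not shown lie at chr19:8618039-8628299 (Slc22a6, plus strand), chr17:12584132-12628488 (Slc22a2, plus), chr11:61343401-61378345 (Slc47a1, minus) and chr8:70882889-70892757 (Slc5a5, minus). TGATGNAA matched only in Slc7a11, at 66 and 47 bases before the start and in opposite orientations, and 3.45% of 32851 RefSeq promoter windows of the same length hold it. Activation of Slc7a11 through amino acid response elements is textbook knowledge. GTAAACA also matched only in Slc7a11, at 232 bases, against 3.17% of all windows. TGACNNNGC matched at 82 bases in Slc6a13 and at 207 bases in Slc16a1, against 10.2% of windows. GCCNNNGGC (13.7% of windows) and TATAAA (12.4%) matched in none of the 9. Base composition differed widely: the Slc16a1 window held 76.4% G and C with 37 CpG pairs, the Slco1a4 window 39.2% with 0. These matches are letters in a window and say nothing of binding.

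The N-PRα-KO library held 8336 barcodes, of which the filters kept 4186 cells with a median of 5781 UMIs, and the WT library 11438 barcodes and 9895 cells with a median of 3264. The mitochondrial limit removed 4126 N-PRα-KO barcodes and 1329 WT barcodes, so the 2 sets of kept cells passed unequal selection. The libraries shared 38 cell barcodes after filtering, where 46.8 are expected by chance from the label set. Clustering gave 11 classes. Every class had all of its listed markers at 3 or more times the median of the other classes in each library with at least 30 of its cells. Fibroblast-like cells numbered 1011 in N-PRα-KO and 624 in WT, endothelial-like cells 539 and 348. These numbers can be set by the sort and the filters and are not read as tissue abundance. Pdgfra, the targeted gene, stood at 652 CPM (UMIs per 1000000 UMIs of the class) in N-PRα-KO fibroblast-like cells and 695 CPM in WT ones. Oligodendrocyte-lineage-like cells had 1928 CPM (67 cells) in N-PRα-KO and 4647 CPM (5034 cells) in WT. It was at 23.2 to 108 CPM in the 9 other N-PRα-KO classes and 133 to 298 CPM in the 7 other WT classes. Which part of the gene the counted tags come from was not stated, so these levels are no check of the deletion.

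Most clusters were made almost wholly of 1 library, so the fibroblast-like and endothelial-like classes of N-PRα-KO and WT rest on different clusters. Among fibroblast-like cells, N-PRα-KO cells lay mainly in a cluster of 624 cells led by Col15a1 and one of 323 cells led by Dcn and Itih2, and WT cells in one of 496 cells led by Gjb2 and Col1a1. A cluster led by Nov and H19 held cells of both libraries, 63 N-PRα-KO and 120 WT. Fibroblast-like cells were therefore clustered again on values standardized within each library, with the listed carriers left out. This gave arachnoid-like cells (389 N-PRα-KO, 358 WT), pial-and-perivascular-like cells (501 and 82), dural-like cells (61 and 114), dividing cells (49 and 46) and a small unnamed group (11 and 24). The pial-and-perivascular-like cells had 8 of their 11 markers at their highest in N-PRα-KO and 7 of 11 in WT, and the dividing cells 8 of 8 in both. Dural-like cells had 5 of 6 dural markers at their highest in both libraries, among them Mgp, Foxc2 and Fxyd5. The arachnoid list went to 2 places: Gjb2, Gjb6, Wnt6 and Aldh1a2 peaked in the arachnoid-like cells, whereas Cldn11, Cdh1, Crabp2 and Dpp4 peaked in the dural-like cells of both libraries. Of the 10 arachnoid markers, 5 were highest in arachnoid-like cells of each library. In dural-like cells 5 were highest in N-PRα-KO and 4 in WT. The names are therefore approximate, and the dural-like cells carry genes known from the arachnoid barrier layer.

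Each of the 10 carriers had a leading class, and it was the same in both libraries for 9 of them. Slc6a13, Slc6a20a, Slc22a6, Slc7a11, Slc22a2 and Slc47a1 were highest in fibroblast-like cells, and Slc2a1, Slc16a1 and Slco1a4 in endothelial-like cells. Slc5a5 was highest in fibroblast-like cells of WT, and in N-PRα-KO in 39 choroid-plexus-like cells, a class with 1 cell in WT. The interval of each leading class did not overlap that of the class after it. Below the leaders the order was mostly unresolved. For Slc6a13 in WT, for instance, endothelial-like cells (4.05 CPM) and neuronal-lineage-like cells (2.56 CPM) had overlapping intervals.

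**Figure D1:**
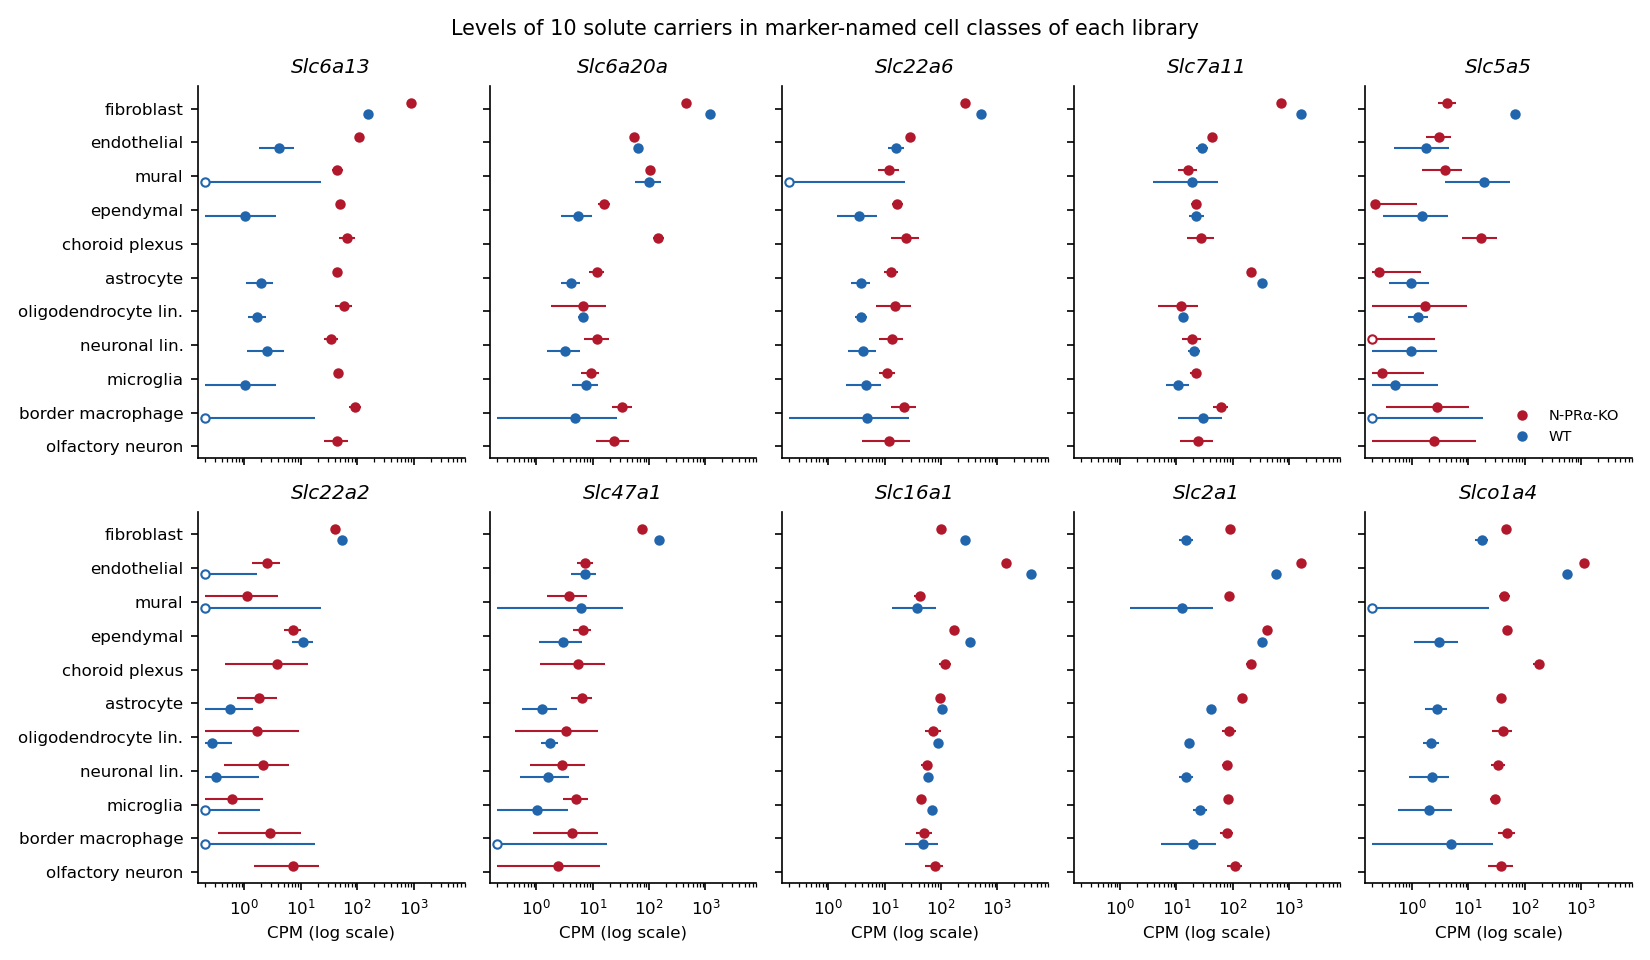
Level of each carrier (CPM, log axis) in each cell class with at least 30 cells, N-PRα-KO in red above WT in blue. Lines are exact 95% Poisson intervals for counting error, and open circles at the low end of the axis mark 0 UMIs. Slc2a1 and Slc16a1 peak in endothelial-like cells of both libraries, and Slc6a13, Slc2a1 and Slco1a4 have a raised base level across the N-PRα-KO classes.

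For several carriers the N-PRα-KO library had a higher base level than WT outside the leading classes. Outside fibroblast-like cells, Slc6a13 stood at 34.5 to 107 CPM in the 10 N-PRα-KO classes and at 0 to 4.05 CPM in the 8 WT classes. Slc2a1, outside the endothelial-like, ependymal-like, choroid-plexus-like and astrocyte-like cells, stood at 78.8 to 109 CPM in N-PRα-KO and 12.5 to 26.6 CPM in WT. Slco1a4, outside endothelial-like and choroid-plexus-like cells, stood at 30.02 to 49.2 CPM in N-PRα-KO and 0 to 17.4 CPM in WT, where fibroblast-like cells were the highest. Slc22a6, outside fibroblast-like cells, stood at 11.1 to 28.4 CPM in N-PRα-KO and 0 to 16.2 CPM in WT, with medians of 14.3 and 4.01 CPM. For Slc6a20a the medians outside fibroblast-like cells were 20.2 and 6.11 CPM. What these levels come from was not tested, and a difference between the libraries at such a level is not read as one of the class.

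Across fibroblast-like cells the amino acid carriers parted: Slc6a13 was higher in N-PRα-KO, and Slc6a20a and Slc7a11 were lower. Of the 10 carriers, 3 were at least 2-fold higher in N-PRα-KO and 5 at least 2-fold lower, where 15.3% and 8.56% of 7371 genes were so. Only genes that reached 20 CPM in at least 1 of the libraries enter such counts. The 3 higher ones were Slc6a13, Slc2a1 and Slco1a4. Of these, Slc2a1 stood at 88.5 CPM in N-PRα-KO and 15.1 CPM in WT, both below the medians over the other classes (98.3 and 23.0 CPM). Slco1a4 stood at 47.4 and 17.4 CPM, beside other-class medians of 42.2 and 2.50 CPM. The 5 lower ones were Slc6a20a, Slc7a11, Slc16a1, Slc47a1 and Slc5a5. Slc47a1, at a log2 ratio of -1.02, was short of 2-fold at a mitochondrial limit of 15% (-0.62) or 50% (-0.87) and with the GC trend removed (-0.84). With the 4 named sub-clusters weighted equally Slc16a1 was at -0.65, Slc7a11 at -0.89 and Slc47a1 at 0.24. The median log2 ratio of all genes in the class was -0.02. Log2 ratios in this class followed the GC content of the last 500 transcript bases (Spearman rho 0.55 across 7361 genes of the same 2 libraries, a description). Ratios of the 10 carriers over whole fibroblast-like and endothelial-like classes, and the other printed ones that cross 2-fold by it, are therefore also given with the GC trend removed.

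Slc6a13, a sodium- and chloride-coupled uptake carrier for GABA and taurine, stood at 892 CPM (871 to 914) in N-PRα-KO fibroblast-like cells and 155 CPM (142 to 169) in WT ones. The log2 ratio was 2.53 (2.40 to 2.66), and 1.45 with the GC trend removed. The last 500 bases of its transcript hold 56.2% G and C. The same direction appeared in each main sub-cluster. Arachnoid-like cells had 1096 CPM in N-PRα-KO and 237 CPM in WT (log2 ratio 2.21), pial-and-perivascular-like cells 988 and 158 CPM (2.65), and dividing cells 453 and 113 CPM (2.001). With the GC trend removed these were 1.13, 1.52 and 0.88, the last short of 2-fold. Dural-like cells, at 89.4 CPM (61 UMIs) in N-PRα-KO and 1.25 CPM (1 UMI) in WT, were at the base level of each library. Their log2 ratio of 6.16 (3.62 to 11.5) is thus not read as a difference in these cells. In N-PRα-KO 94.9% of fibroblast-like cells had a Slc6a13 UMI, in WT 44.6% (median 6322 and 4603 UMIs per cell). In neuronal-lineage-like cells, which should lack it, the shares were 13.6% and 0.826% (median 4317 and 2556 UMIs). With every cell thinned to 2000 UMIs, which left out 8 N-PRα-KO and 52 WT cells, the fibroblast shares were 78.6% and 26.4%.

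Slc6a20a, a sodium-dependent carrier of proline and other imino acids, took the other course. Its level was 450 CPM (435 to 466) in N-PRα-KO fibroblast-like cells and 1198 CPM (1161 to 1235) in WT. The log2 ratio was -1.41 (-1.48 to -1.35), and -1.17 with the GC trend removed. The gene was concentrated in arachnoid-like cells, which gave 90.6% of its fibroblast UMIs in N-PRα-KO and 92.2% in WT. Arachnoid-like cells were 38.5% of the class in N-PRα-KO and 57.4% in WT, so the class value mixes level with make-up. Within arachnoid-like cells the levels were 1199 and 2225 CPM (log2 ratio -0.89, interval -0.96 to -0.82). In pial-and-perivascular-like cells they were 64.9 and 253 CPM (-1.96, -2.31 to -1.61). Dural-like cells ran the opposite way at low counts, with 58.6 CPM (40 UMIs) in N-PRα-KO and 11.3 CPM (9 UMIs) in WT. With the 4 named sub-clusters weighted equally the log2 ratio was -0.97. Among fibroblast-like cells 47.3% had a UMI in N-PRα-KO and 70.0% in WT, among microglia-like cells 4.82% and 2.35% (median 5602 and 2744 UMIs). Exons of Slc6a20a share 563 bases with the antisense gene Gm17120, and reads may be split with the close copy Slc6a20b, so its absolute level is uncertain.

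Slc7a11, whose upstream window is the one with the amino acid response element matches, exchanges intracellular glutamate for cystine, the precursor of glutathione. Fibroblast-like cells had 728 CPM (708 to 748) in N-PRα-KO and 1633 CPM (1591 to 1677) in WT. The log2 ratio was -1.17 (-1.22 to -1.11), or -0.92 with the GC trend removed. Like Slc6a20a it peaked in arachnoid-like cells, at 1715 CPM in N-PRα-KO and 2952 CPM in WT (log2 ratio -0.78). That peak depends on the sub-clustering. At resolution 0.5 only 17 N-PRα-KO and 5 WT cells were under the arachnoid name, and part of the class was in no named sub-cluster. Among named cells Slc7a11 was then higher in pial-and-perivascular-like than in arachnoid-like cells of both libraries. In pial-and-perivascular-like cells it stood at 254 and 721 CPM (-1.51), in dividing cells at 184 and 339 CPM (-0.89). Dural-like cells had almost none, 13 UMIs in N-PRα-KO and 4 in WT. Its partner Slc3a2, the heavy chain it shares with other amino acid exchangers, stood at 517 and 578 CPM in the class (log2 ratio -0.16).

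**Figure D2:**
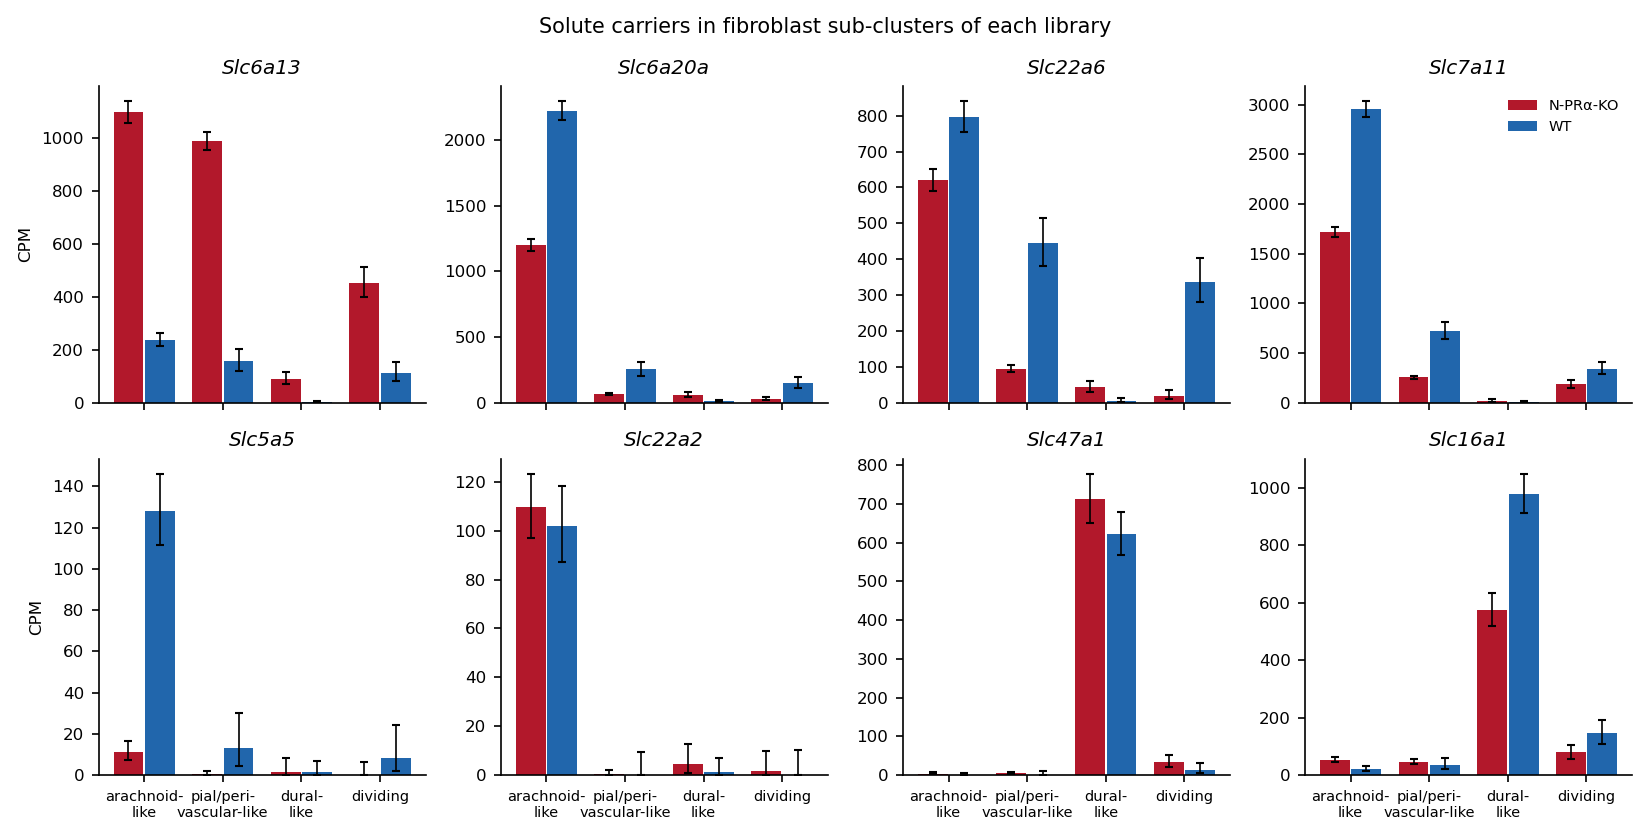
Level (CPM, linear axes from 0) of 8 carriers in 4 fibroblast sub-clusters, N-PRα-KO in red left of WT in blue, with exact 95% Poisson intervals for counting error. Slc6a20a, Slc22a6, Slc7a11, Slc5a5 and Slc22a2 are highest in arachnoid-like cells and Slc47a1 and Slc16a1 in dural-like cells of both libraries, and Slc6a13 is spread over arachnoid-like and pial-and-perivascular-like cells.

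Among the named sub-clusters, the organic ion carriers each peaked in the same one in both libraries, but the levels of Slc22a6 below its peak differed. Slc22a6, the organic anion uptake carrier best known from the kidney, stood at 262 CPM (251 to 274) in N-PRα-KO fibroblast-like cells and 505 CPM (481 to 530) in WT. This log2 ratio of -0.94 (-1.04 to -0.85) is short of 2-fold, and -0.57 with the GC trend removed. It was past 2-fold at a mitochondrial limit of 15% (-1.11) and with the 4 named sub-clusters weighted equally (-1.03). The difference was small in arachnoid-like cells, with 621 and 797 CPM (log2 ratio -0.36, and 0.04 with the GC trend removed). It was larger in pial-and-perivascular-like cells, with 94.3 and 444 CPM (-2.24, -2.51 to -1.96), and in dividing cells, with 19.2 CPM (11 UMIs) and 337 CPM (122 UMIs). Dural-like cells ran the opposite way at low counts, with 42.5 CPM (29 UMIs) and 5.01 CPM (4 UMIs). Whether these ratios differ between sub-clusters was not tested. At sub-clustering resolution 0.5 the log2 ratio was -1.04 in arachnoid-like cells (17 N-PRα-KO, 5 WT) and -2.01 in pial-and-perivascular-like cells. Endothelial-like cells held a low level with the opposite sign, 28.4 CPM in N-PRα-KO and 16.2 CPM in WT (log2 ratio 0.81, interval 0.28 to 1.38, and 1.27 with the GC trend removed). The base level of Slc22a6 given above also was higher in N-PRα-KO, so this is not read as a difference of endothelial-like cells.

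Slc22a2, the organic cation carrier OCT2, came mainly from arachnoid-like cells, which gave 91.9% of its fibroblast UMIs in N-PRα-KO (271 of 295) and 94.0% in WT (171 of 182). The small unnamed group gave 18 UMIs (6.10%) in N-PRα-KO and 10 (5.49%) in WT, from 1.09% and 3.85% of the cells. Its levels in arachnoid-like cells were 110 CPM (96.9 to 123) in N-PRα-KO and 102 CPM (87.1 to 118) in WT, with a log2 ratio of 0.11 and an interval of -0.18 to 0.39 that spans 0. Pial-and-perivascular-like cells had 2 UMIs in N-PRα-KO and 0 in WT, where the interval for 0 UMIs reaches 9.53 CPM. Over the whole class the levels were 40.6 and 53.7 CPM. Ependymal-like cells had a second low level, 7.27 CPM in N-PRα-KO and 11.1 CPM in WT, beside other-class medians of 2.32 and 0.131 CPM.

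Slc47a1, a proton-coupled exporter of organic cations, was highest in the sub-cluster with both dural and arachnoid barrier markers, the dural-like cells. They gave 90.8% of its fibroblast UMIs in N-PRα-KO and 98.2% in WT, from 6.03% and 18.3% of the cells. Its class level was 73.6 CPM in N-PRα-KO and 149 CPM in WT (log2 ratio -1.02, and -0.84 with the GC trend removed), but within dural-like cells it was 712 CPM (650 to 778) in N-PRα-KO and 622.5 CPM (569 to 680) in WT, with a log2 ratio of 0.19 (0.01 to 0.38). The 2-fold lower class value was therefore not present in the cells that hold the gene. Slc47a1 and Slc22a2, the pair of organic cation carriers, had their peaks in different sub-clusters: Slc47a1 in arachnoid-like cells was 3.64 CPM in N-PRα-KO and 1.19 CPM in WT.

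Slc5a5, the sodium-iodide symporter, had the lowest log2 ratio of the 10 carriers in fibroblast-like cells. It had 31 UMIs (4.26 CPM, 2.90 to 6.05) in N-PRα-KO fibroblast-like cells and 231 UMIs (68.2 CPM, 59.7 to 77.6) in WT, a log2 ratio of -4.00 (-4.59 to -3.46), and -4.30 with the GC trend removed. In arachnoid-like cells it stood at 11.3 CPM in N-PRα-KO and 128 CPM in WT (-3.50, -4.12 to -2.93), and with the GC trend removed the ratio was -3.79. A UMI was found in 5.66% of N-PRα-KO and 28.5% of WT arachnoid-like cells, against 0.172% and 0.156% of microglia-like cells. The arachnoid-over-pial-and-perivascular pattern was kept in both libraries (log2 ratio 4.28 in N-PRα-KO, on 2 UMIs in the lower group with an interval of 2.29 to 7.40, and 3.31 in WT).

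Within each library, 5 of the 10 carriers were at least 2-fold higher in arachnoid-like than in pial-and-perivascular-like cells and 0 were as much lower. Of all genes 6.37% were higher and 6.87% lower by that size in N-PRα-KO, and 10.5% and 8.84% in WT. These shares cover genes at 20 CPM or more. The carrier counts here had no such minimum, and Slc5a5 in N-PRα-KO, at 11.3 CPM in arachnoid-like cells, was under it. Slc6a20a, Slc22a2, Slc5a5 and Slc7a11 were among the 5 in both libraries, with Slc22a6 in N-PRα-KO and, on 2 UMIs in the lower group, Slco1a4 in WT. Fold values were 18.5 in N-PRα-KO and 8.79 in WT for Slc6a20a, and 6.75 and 4.10 for Slc7a11. For Slc22a6 the log2 ratio was 2.72 in N-PRα-KO and 0.84 in WT. Slc6a13 was near even, at 0.15 in N-PRα-KO (0.08 to 0.22) and 0.59 in WT (0.20 to 1.005). Dural-like over arachnoid-like cells turned the pattern round: Slc47a1 (log2 ratio 7.61 in N-PRα-KO, 9.03 in WT) and Slc16a1 (3.43 and 5.51) were at least 2-fold higher, where 11.6% of all genes in N-PRα-KO and 12.3% in WT were. Of the other carriers 6 in N-PRα-KO and 7 in WT were at least 2-fold lower, where 11% and 13% of all genes were. The 6 include Slc5a5 (1.47 against 11.3 CPM), which was under the 20 CPM minimum of the all-gene shares.

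Slc16a1, a carrier of lactate and ketone bodies, was shared by endothelium and dural-like fibroblasts. Dural-like cells had 574 CPM (519 to 634) in N-PRα-KO and 978 CPM (911 to 1049) in WT, a log2 ratio of -0.77 (-0.95 to -0.59), and gave 53.4% of the fibroblast UMIs in N-PRα-KO and 87.4% in WT. Arachnoid-like cells had 53.3 and 21.4 CPM, below the medians over the classes other than fibroblasts (75.3 and 78.7 CPM). Among dural-like cells, a UMI of Slc16a1 was found in 88.5% in N-PRα-KO and 96.5% in WT, and a UMI of both Slc16a1 and Slc47a1 in 77.0% and 84.2%. Over all fibroblast-like cells Slc47a1 was detected in 17.9% of the Slc16a1-positive and 3.90% of the Slc16a1-negative cells in N-PRα-KO. In WT these shares were 59.6% and 0.655%.

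**Figure D3:**
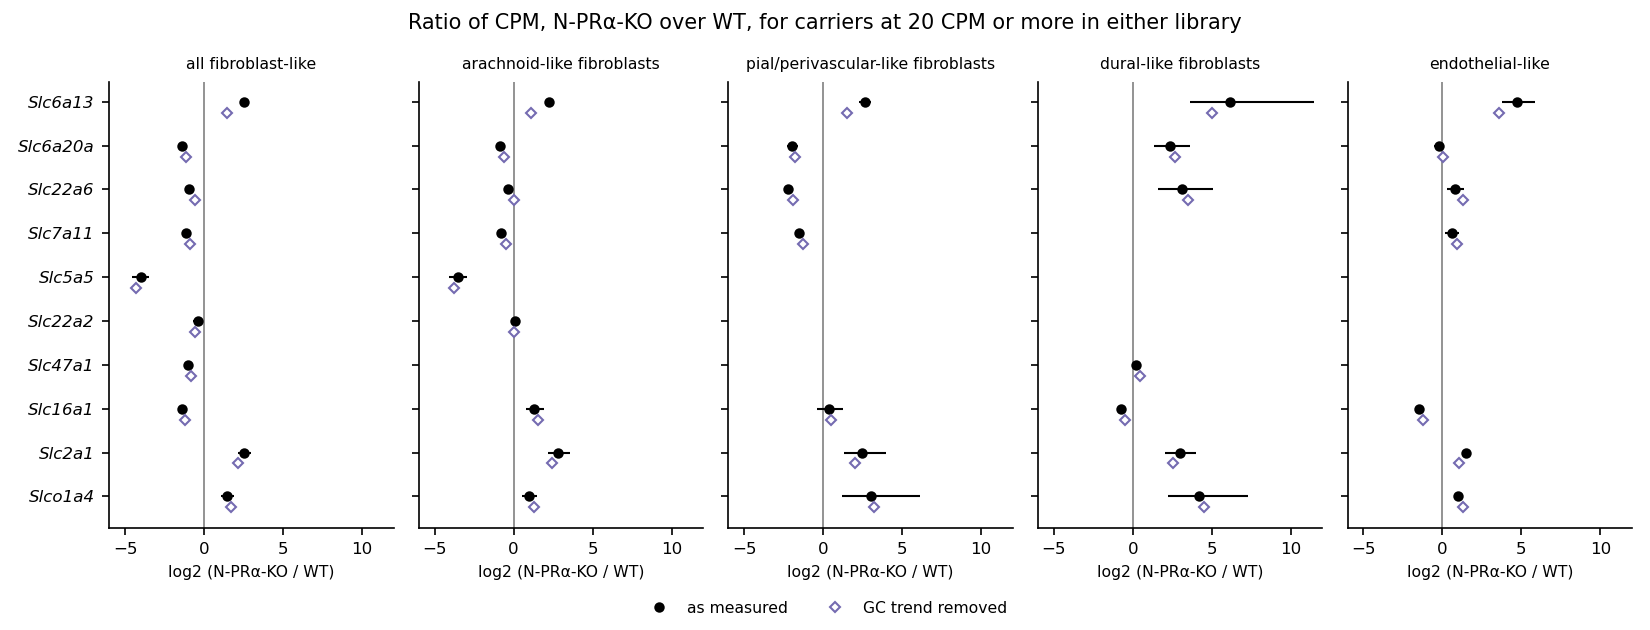
Log2 ratio of CPM, N-PRα-KO over WT, of the carriers that reached 20 CPM, in fibroblast-like cells, 3 of their sub-clusters and endothelial-like cells. Black points with lines are measured ratios with exact conditional 95% intervals for counting error, and open diamonds the ratios with the GC trend removed. Slc6a13 lies right of 0 in each panel and Slc5a5 furthest left where shown. In N-PRα-KO, Slc6a13 was at the base level in dural-like cells (89.4 CPM), and endothelial-like cells (107 CPM) were the highest class outside fibroblast-like cells.

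In endothelial-like cells, where all 3 vascular carriers were far above their base level, Slc2a1 and Slco1a4 were higher and Slc16a1 lower in N-PRα-KO. Of the 10 carriers, 7 reached 20 CPM there, and 3 were at least 2-fold higher (Slc6a13, Slc2a1, Slco1a4) and 1 at least 2-fold lower, where 17.3% and 9.44% of 7312 genes were so. Slc6a13, at 107 CPM in N-PRα-KO and 4.05 CPM in WT, was at its highest outside fibroblast-like cells, beside other-class medians of 47.3 and 1.35 CPM. In N-PRα-KO its interval (98.6 to 116) overlapped that of border-macrophage-like cells and lay above those of the classes ranked lower. Whether it stands above the base level was not tested, and its ratio is not read as a difference of endothelial-like cells. Slc2a1, the main route of glucose into the brain, stood at 1628 CPM (1595 to 1662) in N-PRα-KO and 588 CPM (556 to 620) in WT. Its log2 ratio was 1.47 (1.39 to 1.56), and 1.05 with the GC trend removed. Slco1a4 stood at 1147 CPM (1119 to 1176) in N-PRα-KO and 571 CPM (540 to 603) in WT, a log2 ratio of 1.01 (0.92 to 1.096) and of 1.32 with the GC trend removed. At a mitochondrial limit of 15% the ratio of Slco1a4 was 0.76, short of 2-fold. Slc16a1 stood at 1428 CPM (1396 to 1460) in N-PRα-KO and 3959 CPM (3877 to 4043) in WT, a log2 ratio of -1.47 (-1.52 to -1.43) and of -1.23 with the GC trend removed. Endothelial markers summed to 10803 CPM in N-PRα-KO and 7489 CPM in WT, and cells held a median of 8531 and 4635 UMIs. What part these differences have in the carrier ratios was not tested. Reads of Slco1a4 may be shared with its close copies Slco1a5 and Slco1a6, and exons of Slc2a1 share 105 bases with the antisense gene Gm12868.

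A UMI of Slc2a1 was found in 97.4% of N-PRα-KO and 81.6% of WT endothelial-like cells, and in 32.5% and 4.33% of neuronal-lineage-like cells. After thinning to 2000 UMIs the endothelial shares were 88.2% and 63.9%. For Slco1a4 the endothelial shares were 89.1% and 64.7%, or 73.4% and 54.3% after thinning, and those of neuronal-lineage-like cells 15.1% and 0.619%. For Slc16a1 they were 92.0% and 95.98%, or 78.8% and 93.2% after thinning, against 21.5% and 12.5% of neuronal-lineage-like cells. The neuronal-lineage-like cells had median depths of 4317 UMIs in N-PRα-KO and 2556 UMIs in WT. Slc2a1 and Slc16a1 were found together in 90.9% of N-PRα-KO and 79.0% of WT endothelial-like cells, close to the 89.6% and 78.3% that the product of their separate shares gives.

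The N-PRα-KO endothelial-like cells fell into a main cluster of 461 cells and one of 78 cells led by Gkn3, with Sema3g and Edn1 among its leading genes, and all 348 WT cells into a cluster of their own. Slc2a1 was level across the N-PRα-KO pair, at 1632 CPM in the main cluster and 1611 CPM in the Gkn3-led one. Slc16a1 was not: it stood at 1613 CPM (1577 to 1650) in the main cluster and 380 CPM (339 to 424) in the Gkn3-led one, a log2 ratio of 2.09 (1.92 to 2.25). Slco1a4 lay between, with 1229 and 685 CPM (0.84, 0.72 to 0.97). With the main N-PRα-KO cluster alone set against WT, the log2 ratios were 1.47 for Slc2a1, -1.30 for Slc16a1 and 1.11 for Slco1a4, with the same signs as in the whole class.

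**Figure D4:**
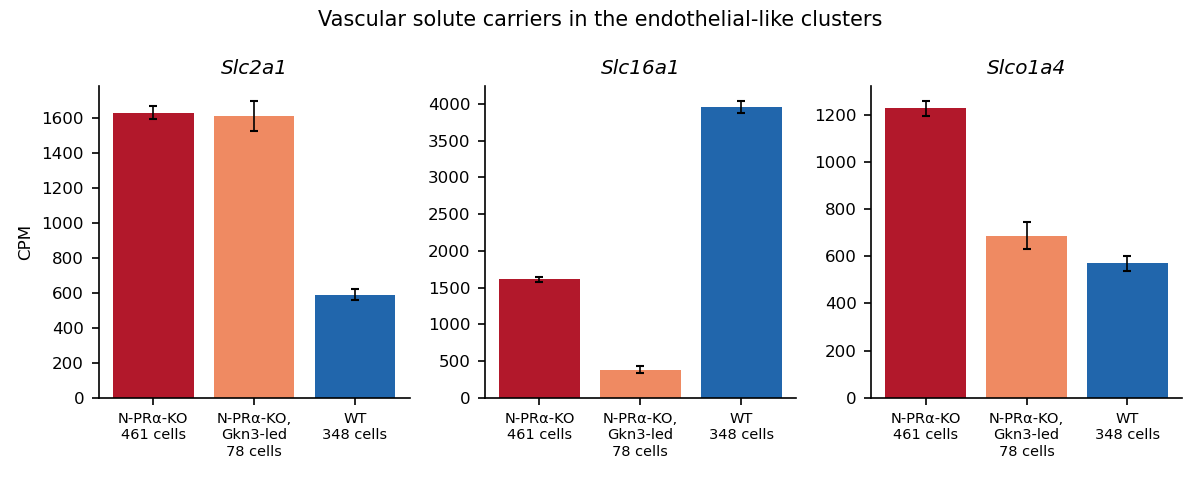
Level (CPM, linear axes from 0) of Slc2a1, Slc16a1 and Slco1a4 in the main and the Gkn3-led N-PRα-KO endothelial-like clusters and in the WT cluster, with exact 95% Poisson intervals. Slc16a1 is lowest in the Gkn3-led cluster (380 CPM) and highest in WT (3959 CPM), whereas Slc2a1 is at 1632 and 1611 CPM in the N-PRα-KO clusters.

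Other classes held secondary levels. Ependymal-like cells, which line the ventricles, had Slc2a1 at 411 CPM in N-PRα-KO and 331 CPM in WT (log2 ratio 0.31, and -0.06 with the GC trend removed), and Slc16a1 at 173 and 323 CPM (-0.90, -1.05 to -0.75). Slc16a1 was thus lower in N-PRα-KO in ependymal-like, endothelial-like and dural-like cells, but not only there. It was also lower in microglia-like cells (-0.67, -1.01 to -0.32) and in dividing fibroblast-like cells (-0.89, -1.50 to -0.29). At low levels in arachnoid-like cells it was higher (1.32). In astrocyte-like cells it was 97.7 and 103 CPM. Astrocyte-like cells were the second site of Slc7a11, with 214 CPM in N-PRα-KO and 331 CPM in WT (-0.63, -0.74 to -0.51, where the median of all genes in the class was -0.15). They also had Slc2a1 at 146 and 41.3 CPM. Mural-like cells held Slc6a20a at 105 CPM in N-PRα-KO and 99.6 CPM in WT (0.07, -0.66 to 0.91), on 366 and 52 cells. The 39 choroid-plexus-like cells of N-PRα-KO had Slc2a1 at 212 CPM, Slco1a4 at 176 CPM and Slc6a20a at 147 CPM, with no WT class to compare.

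Carriers that peaked together were often detected in the same cells, but this was not particular to them. Slc7a11 was detected in 88.9% of Slc6a20a-positive and 59.3% of Slc6a20a-negative fibroblast-like cells in N-PRα-KO, and in 94.97% and 31.6% in WT. Slc22a6 was detected in 74.3% of Slc6a20a-positive and 28.7% of Slc6a20a-negative cells in N-PRα-KO, and in 86.5% and 27.3% in WT. For Slc6a13, which was near even between arachnoid-like and pial-and-perivascular-like cells, the shares ran the same way. Slc7a11 was detected in 76.1% of Slc6a13-positive and 21.2% of Slc6a13-negative cells in N-PRα-KO, and in 94.2% and 61.3% in WT. Such shares can rise with the depth of a cell as well as with its type.

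Over the 20 class-by-library points, the genes whose log2(CPM + 10) followed each carrier most closely among 12317 genes were chosen by Pearson's r, and the points of a library share its base level and depth. Slc6a13 followed Col15a1 (0.97), Tmem150a and Ptgds, and Slc6a20a followed Gpc3 (0.95), Trabd2b and Postn. Slc7a11 followed Fmo1 (0.96), Ranbp3l and Gjb6, Slc22a6 followed Lum (0.98), Aldh1a2 and Col1a1, and Slc22a2 followed Serpind1 (0.95), Asgr1 and Efemp1. Slc47a1 followed Il13ra2, Asgr1 and Aox3 (0.97 each), and Slc5a5 followed Svep1 (0.84), Lepr and Dock5. On the endothelial side Slco1a4 followed Ly6c1 (0.98), Egfl7 and Bsg, Slc16a1 followed Akr1c14 (0.96), Cdkn2b and Vegfc, and Slc2a1 followed Mall (0.89), Gsta4 and Rph3al. Between carriers the closest pair was Slc22a6 with Slc47a1 (0.95). Their sub-cluster peaks differ, and the points here are whole classes. Slc2a1 with Slco1a4 reached 0.82 and Slc2a1 with Slc16a1 0.71.

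A wider list of 51 barrier carriers gave both signs in fibroblast-like cells. Of the 35 that reached 20 CPM, 9 were at least 2-fold higher and 9 at least 2-fold lower in N-PRα-KO, against the 15.3% and 8.56% of all genes given above. Their median log2 ratio was 0.19, and -0.04 with the GC trend removed. Among organic anion carriers, Slc22a8 (OAT3) stood at 419 CPM in N-PRα-KO and 120 CPM in WT (log2 ratio 1.81, 1.66 to 1.96). Its medians over the other classes were 63.9 and 6.35 CPM, a higher base level in N-PRα-KO. Over the class OAT3 was thus higher, and OAT1 (Slc22a6) was lower but, at the main settings, short of 2-fold. The equilibrative nucleoside transporter Slc29a1 stood at 209 and 30.7 CPM (2.76, 2.48 to 3.07, and 1.82 with the GC trend removed), beside other-class medians of 39.2 and 11.5 CPM. In dural-like cells, where Slc29a1 had 3 WT UMIs, Slc22a8 was 202 and 26.3 CPM. The cation carrier Slc22a4 was 10.3 and 28.1 CPM (-1.44).

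Among amino acid and osmolyte carriers, Slc38a3, a glutamine transporter, stood at 52.5 CPM in N-PRα-KO and 7.68 CPM in WT (log2 ratio 2.77, and 1.65 with the GC trend removed), beside medians over the other classes of 38.2 and 4.41 CPM. Slc7a5, the large neutral amino acid exchanger LAT1, stood at 136 and 30.1 CPM (2.17, 1.88 to 2.48), with other-class medians of 59.7 and 37.2 CPM. Slc6a12, a betaine and GABA transporter of the same family as Slc6a13, stood at 23.6 and 7.97 CPM (1.57, 0.98 to 2.21, and 0.66 with the GC trend removed), with other-class medians of 2.22 and 0 CPM. Of 10 listed members of this group at 20 CPM or more, 4 were at least 2-fold higher and 2 at least 2-fold lower. In the sugar, monocarboxylate and thyroid hormone group, 1 of 5 was higher and 0 lower. Slc16a11 stood at 23.9 and 7.97 CPM (1.59, and 0.33 with the GC trend removed). Slco1c1, a thyroid hormone carrier, stood at 59.9 and 34.3 CPM (0.81, and 1.30 with the GC trend removed), below its other-class medians of 74.9 and 59.4 CPM. Slc16a9 was 46.9 and 67.6 CPM (-0.53).

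Among ion, metal, vitamin and lipid carriers, 2 of 15 were at least 2-fold higher and 6 at least 2-fold lower. The largest lower values belonged to genes of the dural-like cells. The anion exchanger Slc26a7 stood at 41.0 CPM in N-PRα-KO and 176 CPM in WT over the class (log2 ratio -2.10), and at 415 and 723 CPM within dural-like cells. The sodium-bicarbonate carrier Slc4a10 stood at 92.8 and 396 CPM over the class (-2.09), and at 938 and 1622 CPM within dural-like cells. The vitamin carrier Slc5a6 stood at 40.0 and 127 CPM (-1.67), and at 328 and 511 CPM within them. In arachnoid-like cells 10 of the 31 list members at 20 CPM or more were at least 2-fold higher and 1 lower in N-PRα-KO, where 14.9% and 7.37% of all genes were so. Of the 10 main carriers 9 reached 20 CPM in those cells, with 3 higher (Slc6a13, Slc2a1 and Slc16a1) and 1 lower (Slc5a5). Slc2a1 was there at its base level (88.9 CPM in N-PRα-KO, 12.5 CPM in WT). Slc16a1 (53.3 and 21.4 CPM) was below the medians over the classes other than fibroblasts. In pial-and-perivascular-like cells 7 of the 10 reached 20 CPM, with 3 higher and 3 lower, where 19.4% and 9.96% of all genes were. The 3 higher include Slc2a1 (86.7 and 15.5 CPM) and Slco1a4 (42.5 and 5.17 CPM, on 2 WT UMIs), both within their base levels. In dural-like cells 7 of the 10 reached 20 CPM, with 5 higher and 0 lower, where 17.3% and 10.5% of all genes were. These 5 had at most 107 CPM in either library.

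**Figure D5:**
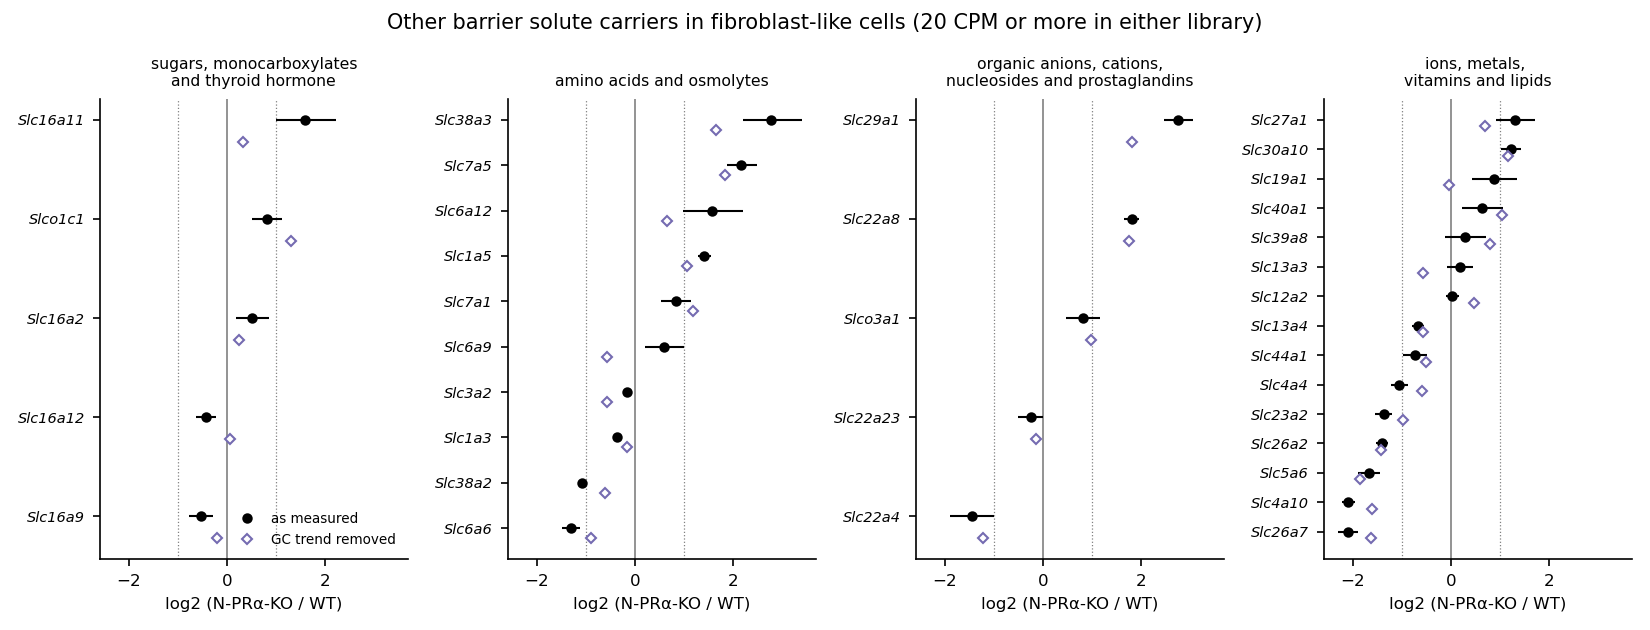
Log2 ratio of CPM, N-PRα-KO over WT, in fibroblast-like cells for the 35 other listed barrier carriers that reached 20 CPM, in 4 groups by substrate. Points with lines are measured ratios with exact conditional 95% intervals, open diamonds have the GC trend removed, and dotted lines mark 2-fold. Slc29a1 and Slc38a3 lie furthest right, Slc26a7 and Slc4a10 furthest left.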

How the data were processed

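The authors' deposited tables hold raw counts of UMIs per cell and gene, 1 table per library. Per the file headers, BD's Rhapsody WTA Analysis Pipeline made them on GRCm38 with GENCODE M19, in release 1.10 for N-PRα-KO and 1.10.1 for WT. The submitters' processing notes name GRCm38 and mm10. The aligner and the counted strand are not given in the sources used here.

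Barcodes with 300 genes or more and up to 25% of UMIs from mitochondrial genes entered. Scrublet calls were removed (10 of 4196 N-PRα-KO cells, 0.238%, too few to take as a working call, and 174 of 10069 WT cells, 1.73%). Both libraries were clustered together with scanpy 1.11.5 and leidenalg 0.10.2 (2000 variable genes without the listed carriers, 30 components, 20 neighbours, resolution 1), with no integration. Clusters were named from marker lists holding no carrier, needing a score (mean log2 fold over the other clusters) of 0.5, a lead of 0.5 over the next list and 3 detected markers. Fibroblast-like cells were clustered again on values standardized within each library (1000 variable genes, 20 components, resolution 0.3). That scaling, the resolution and the joining of the pial and perivascular lists were chosen after the data were seen.

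For each class and library, UMIs were added up and divided by their total (CPM). Intervals are exact at 95% (Poisson for CPM, Clopper-Pearson for shares, conditional binomial for ratios) and cover counting error only. The interval code was tested on simulated data. A ratio against 0 UMIs takes 3 UMIs as the floor. The GC trend is a lowess fit over genes at 20 CPM or more. Shares were also computed for cells thinned to 2000 UMIs. Gene positions and exon overlaps come from GENCODE M21 on GRCm38, promoter sequences from RefSeq on GRCm38.p6.

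The 10 carriers and the lists were chosen with earlier results of these data known. Named were these 10, the 3 genes most like each, and from each of the 4 groups of other carriers the 3 with the largest absolute log2 ratio in fibroblast-like cells. Other genes were named after their values were seen (Slc3a2, and leading genes of clusters). Alternatives changed the mitochondrial limit, the gene minimum, doublet removal, clustering, averaging, the GC trend, background and sub-clusters. No test between genotypes was made, as each had 1 library.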

Additional observations from a re-analysis of the deposited data

Results flagged for a closer look

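Slc22a6 had opposite signs in the endothelial-like and the fibroblast-like cells of the same libraries. Its log2 ratio, N-PRα-KO over WT, was 0.81 (0.28 to 1.38) in endothelial-like cells, on 157 and 36 UMIs, and -0.94 (-1.04 to -0.85) in fibroblast-like cells, on 1908 and 1710 UMIs. With 1 library per genotype the difference between these effects was not tested. The endothelial-like level of Slc22a6 was 28.4 CPM in N-PRα-KO, beside a median of 14.3 CPM over the 10 N-PRα-KO classes other than fibroblast-like cells, and 16.2 CPM in WT, beside a median of 4.01 CPM over the 8 such WT classes. The higher base level in N-PRα-KO thus moves with the positive sign, and its part in it was not tested.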

How the results depend on the processing

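The ratios of Slc6a13 and Slc6a20a in fibroblast-like cells and of Slc2a1 in endothelial-like cells kept their sign under other filters, clusterings and averages, and after the median level of the other classes was subtracted. Clustering all cells at resolutions 0.5 and 2 gave the same numbers of fibroblast-like and endothelial-like cells and the same ratios, so it was no separate check. With the GC trend removed they were 1.45, -1.17 and 1.05. A mitochondrial limit of 15% gave 1.37 for Slc2a1. Within sub-clusters Slc6a13 was 2.21 in arachnoid-like, 6.16 in dural-like and 2.0 in dividing cells, and 2.27 without dural-like cells. Slc6a20a was -0.89 in arachnoid-like, -1.96 in pial-and-perivascular-like and -2.44 in dividing cells, -1.67 without dural-like cells and, on few UMIs, 2.38 with reversed sign in dural-like cells. The cause of these moves was not tested. The 18 other carriers past 2-fold in fibroblast-like cells numbered 14 to 20 over the alternatives. Their split was 9 higher and 9 lower, but 9 and 5 with the GC trend removed, 8 and 6 at the 15% limit and 6 and 8 above 50 CPM. Slc22a2 over all fibroblast-like cells ranged from -0.65 to 0.93 over 8 settings, among them resolutions 0.5 and 2. Sub-clusters at resolution 0.5, chosen after the data were seen, left only 17 N-PRα-KO and 5 WT cells under the arachnoid name. Part of the class was then in no named sub-cluster, and its levels are not given. Slc7a11 stood at 330 and 344 CPM in arachnoid-like cells (-0.06) and at 381 and 2093 CPM in pial-and-perivascular-like cells (-2.46). Its arachnoid peak was thus not kept among the named cells. Slc6a20a in pial-and-perivascular-like cells was at -3.58, and Slc5a5 in arachnoid-like cells at -0.63. Slc22a6 was at -1.04 in arachnoid-like and -2.01 in pial-and-perivascular-like cells. The 2-fold difference of Slc47a1 in fibroblast-like cells was lost at both other mitochondrial limits (-0.62 at 15%, -0.87 at 50%) and that of Slco1a4 in endothelial-like cells at 15% (0.76). No paired analysis was possible because each genotype had 1 library. Depth limits Slc5a5 and Slc22a2, and in dural-like and dividing cells the carriers with few WT UMIs, such as Slc6a13 (1 UMI) and Slc22a6 (4 UMIs) in dural-like cells.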
